A study of Mus musculus with 19 samples.

Results

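The subunits of the mitochondrial respiratory chain and of ATP synthase, with cytochrome c and the complex I assembly factors that share their names, were followed in the kidneys of fasted and ad libitum fed mice. Members were all genes with an annotated symbol that starts with Nduf, Uqcr, Atp5 or Cox and a digit from 4 to 8, plus Sdha, Sdhb, Sdhc, Sdhd, Cycs and Cyc1. This gave 89 of the 17097 genes that had a probe set naming them alone, each taken at its brightest such probe set. All 89 were tested, since no filter on low levels was used. Ndufb6, Uqcrh and Cox7b were not analysed here, and Ndufs5 was represented by Ndufs5-ps alone, a gene annotated as a pseudogene.

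The samples came from 19 male mice that had undergone no renal ischemia, with RNA from parts of both kidneys read on 1 Affymetrix HT MG-430 PM array for each mouse. Young-lean mice, C57BL/6J animals aged 10 to 14 weeks that weighed 22 to 25 g, formed a group of 5 with free access to food and a group of 4 that received water only during a 3-day fast. Aged-overweight mice, hybrids of the FVB-C57BL/6J F1 type with an average age of 73 weeks and a weight of about 47 g, formed a fed and a fasted group of 5 each under the same regimens. Age, strain and weight therefore go together in every comparison between the ages and cannot be told apart.

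Complexes I and II pass electrons from NADH and succinate to ubiquinone, complex III passes them on to cytochrome c, and complex IV hands them to oxygen, while ATP synthase (complex V) uses the resulting proton gradient to make ATP. Most subunits are encoded in the nucleus, and several subunits of complex IV exist as a general form and as forms typical of heart, muscle, brown fat or testis. The kidney tubule is among the tissues richest in mitochondria, because sodium reabsorption runs on ATP.

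Array medians (log2) were 4.15 to 4.21 for the young and 3.44 to 3.49 for the aged mice, and for this reason levels were compared between diets within an age and never between ages. Arrays of one group correlated at 0.988 to 0.997. Proximal tubule markers were high in all groups, with a mean log2 level of 10.37 to 11.08 over 7 genes, and so were markers of the loop and distal tubule, with 9.10 to 10.00 over 8 genes. Of the former, 2 rose and 2 fell in young and 1 rose and 2 fell in aged kidneys: Slc13a3 rose by 0.76 and 0.64, Slc5a2 fell by 0.89 and 1.09, Slc22a6 fell by 0.32 and 0.37, and Slc22a8 rose by 0.77 in the young. Of the latter, Pvalb and Calb1 fell in both ages and Aqp2 fell in the young mice, and whether these changes had a part in the values of the mitochondrial genes was not tested. Red cell genes fell in the young mice for 3 of 4 genes. In the aged mice 0 of the 4 passed in limma, but all 4 were below 0, with 3 at an unadjusted p under 0.05. Of 6 leukocyte markers, 2 fell in young and 1 fell in aged kidneys. Liver markers were highest in aged fasted mouse 33 and young fasted mouse 339. In RNA of a whole tissue, fewer cells of a type and less RNA per cell cannot be told apart.

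The promoters of 6 members are shown first, because the results turn on these genes: Cox6b2, which rose most clearly, its general partner Cox6b1, and Cox7a1, Cycs, Ndufaf4 and Atp5k, which fell in both ages. Each is the window from 250 bases before to 50 bases after a transcription start in RefSeq on GRCm38.p6, read 5′ to 3′ on the strand of the gene. Capitals mark exact matches, on either strand, to the NRF1 core GCATGCGC or the ETS core CCGGAAG, both known from promoters of nuclear genes for respiratory subunits.
Cox6b2, chr7:4753045-4753344, reverse strand: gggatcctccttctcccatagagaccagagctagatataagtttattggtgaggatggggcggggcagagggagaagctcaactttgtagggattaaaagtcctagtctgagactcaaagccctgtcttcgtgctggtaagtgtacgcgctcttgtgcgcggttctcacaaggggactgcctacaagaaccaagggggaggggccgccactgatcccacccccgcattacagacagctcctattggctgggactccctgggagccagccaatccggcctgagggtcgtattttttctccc
Cox6b1, chr7:30626065-30626364, reverse strand: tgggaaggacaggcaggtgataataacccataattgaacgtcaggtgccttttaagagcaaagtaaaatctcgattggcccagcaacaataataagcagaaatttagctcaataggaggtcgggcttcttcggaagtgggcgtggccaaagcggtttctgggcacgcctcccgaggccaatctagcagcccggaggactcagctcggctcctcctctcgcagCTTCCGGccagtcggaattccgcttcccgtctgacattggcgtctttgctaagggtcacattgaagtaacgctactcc
Cox7a1, chr7:30183921-30184220, forward strand: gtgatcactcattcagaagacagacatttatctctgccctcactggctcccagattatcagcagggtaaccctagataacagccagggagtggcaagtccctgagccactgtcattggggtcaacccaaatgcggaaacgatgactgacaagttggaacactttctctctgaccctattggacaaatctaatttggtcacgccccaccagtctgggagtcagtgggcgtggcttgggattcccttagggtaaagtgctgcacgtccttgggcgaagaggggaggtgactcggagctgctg
Cycs, chr6:50566520-50566819, reverse strand: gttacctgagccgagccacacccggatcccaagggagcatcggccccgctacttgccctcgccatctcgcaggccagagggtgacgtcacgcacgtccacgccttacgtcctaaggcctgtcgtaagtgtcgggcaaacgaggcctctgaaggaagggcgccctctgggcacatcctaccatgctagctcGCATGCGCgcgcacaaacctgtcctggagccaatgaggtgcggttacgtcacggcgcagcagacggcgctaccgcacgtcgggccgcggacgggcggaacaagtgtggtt
Ndufaf4, chr4:24897833-24898132, forward strand: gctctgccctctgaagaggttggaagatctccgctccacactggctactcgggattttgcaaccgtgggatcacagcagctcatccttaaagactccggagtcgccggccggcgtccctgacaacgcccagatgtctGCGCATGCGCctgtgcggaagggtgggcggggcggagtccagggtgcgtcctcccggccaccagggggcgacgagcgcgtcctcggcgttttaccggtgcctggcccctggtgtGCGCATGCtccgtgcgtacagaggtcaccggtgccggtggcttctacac
Atp5k, chr5:108434350-108434649, reverse strand: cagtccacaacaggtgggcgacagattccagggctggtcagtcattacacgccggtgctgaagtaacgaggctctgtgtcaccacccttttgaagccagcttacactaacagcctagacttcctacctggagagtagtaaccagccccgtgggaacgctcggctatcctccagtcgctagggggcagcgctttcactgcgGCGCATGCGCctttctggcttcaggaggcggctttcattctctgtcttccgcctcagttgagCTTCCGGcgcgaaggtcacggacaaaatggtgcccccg
The NRF1 core stood in the Cycs window once, in the Atp5k window as a pair of overlapping matches on both strands, and in the Ndufaf4 window as such a pair and once more just after the start. Cox6b1 and Atp5k each held 1 ETS core. The windows of Cox6b2 and Cox7a1 held neither, nor an exact YY1 core AAGATGGC, an exact ERR site TCAAGGTCA or a PPAR direct repeat AGGTCANAGGTCA with up to 2 mismatches.

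Promoters of 71 of the 89 members were in the RefSeq table, in 76 windows. The NRF1 core occurred in 17.1% of these windows and in 2.71% of all 32851 windows of the same length, the ETS core in 22.4% and 8.86%, and the YY1 core in 14.5% and 2.75%. The ERR site was in 2.63% of member windows and 0.423% of all windows, and the PPAR repeat in 2.63% and 3.86%. The NRF1 core was found in 13 member genes, the ETS core in 17 and the YY1 core in 11, whether or not they changed. Of the members that changed with fasting, 16 had a window. Among these the NRF1 core was found in Cycs, Ndufaf4, Ndufaf5 and Atp5k, which fell, and in Ndufa6, which rose in the young mice. The ETS core was found in Atp5e, Atp5k and Ndufs8 and the YY1 core in Ndufc1, all of which fell in the young mice. A match is a description of the letters and does not show that a factor binds there.

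The main comparison asked how 3 days of fasting changed these genes in each age. Most of the respiratory chain stayed within narrow bounds, as most of all genes did. A few named members moved, among them the complex IV isoforms Cox6b2, up 2.44-fold in young and 3.08-fold in aged kidneys, and Cox7a1, down 1.7-fold and 1.8-fold. Cytochrome c, the complex I assembly factor Ndufaf4, the complex III subunit Uqcrq and the ATP synthase subunits Atp5e and Atp5k fell in both ages, the last 3 close to the threshold in aged kidneys. No member moved in opposite directions in the 2 ages at the threshold, and 7 passed it in the same direction in both.

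A member passed at an adjusted p of at most 0.05 in limma, a linear model with variances moderated across probe sets, after Benjamini-Hochberg adjustment over all 45141 probe sets. In young kidneys 6 members rose and 10 fell, against 10.7% of all genes that rose and 12.5% that fell. In aged kidneys 1 member rose and 8 fell, against 4.32% of all genes that rose and 4.84% that fell. Members passed at 18.0% in young kidneys, where 23.2% of all genes did, and at 10.1% in aged kidneys, where 9.16% did, so the share that moved was near that of the transcriptome as a whole. With a fold change of at least 1.5 as well, 3 members were called in young kidneys (6.49% of all genes) and 2 in aged kidneys (2.67%). The levels of fed and fasted mice did not overlap for 17 members in young kidneys, where this held for 21.3% of all genes, and for 14 in aged kidneys, where it held for 10.2%.

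The changes were small. The median log2 fold change of the 89 members was -0.06 in young and -0.05 in aged kidneys, beside -0.01 over all genes in each age. It was below 0 for 64 members in young kidneys (71.9%, against 52.1% of all genes) and for 68 in aged kidneys (76.4%, against 51.7%). The sign was the same in both ages for 69 members (77.5%), beside 65.9% of all genes. The 95% confidence interval of the fold change lay within 1.5-fold in either direction for 84 of 89 members in each age (94.4%). For all genes the share was 85% in young and 88.4% in aged kidneys. The interval lay within these bounds for all 72 general subunits including cytochrome c in both ages. The farthest bound among them was that of Cycs, a 1.45-fold decrease in young and a 1.46-fold decrease in aged kidneys.

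**Figure D1:**
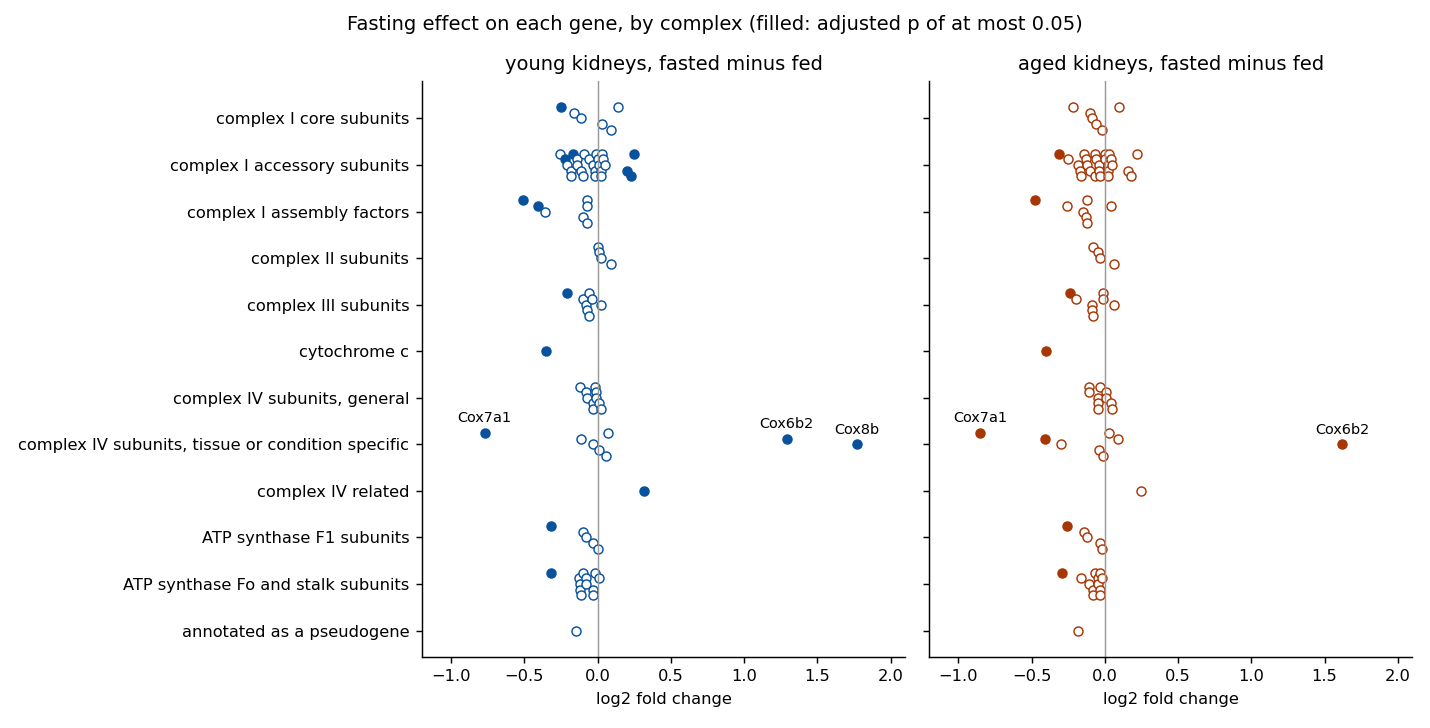
Log2 fold change (fasted minus ad libitum fed, x axis) of each of the 89 genes, by class (y axis), in young (left) and aged (right) kidneys; filled points have an adjusted p of at most 0.05, open points do not, and the vertical spread within a class only separates points. Cox6b2 (1.29 and 1.62) and Cox7a1 (-0.77 and -0.85) stand apart in both ages and Cox8b (1.77) in the young, while complex II and the general subunits of complex IV lie close to 0.

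Complex I, the largest complex and the entry point for NADH, was represented by 6 core subunits, which carry the flavin, the iron-sulfur clusters and the ubiquinone site, by 26 accessory subunits and by 7 assembly factors. Of the core subunits only Ndufs8, which holds iron-sulfur clusters, passed, in young kidneys. In aged kidneys 0 of 6 passed in limma, with 1 at an unadjusted p under 0.05. Ndufs8 lay at 11.56, 11.81, 11.81, 11.82 and 11.83 (log2 level) in young ad libitum fed mice and at 11.44, 11.50, 11.51 and 11.63 in fasted mice, so that fed mouse 349 overlapped the fasted group. It fell by 0.25 on the log2 scale (SE 0.07, adjusted p = 0.0321), and in aged kidneys its log2 fold change was -0.22 (adjusted p = 0.124). The young change missed the threshold without any 1 of 7 of the 9 young arrays (adjusted p up to 0.0894), in a test without moderation (0.0593) and with the mean of the gene's probe sets (0.0635). The other core subunits had young log2 fold changes of -0.16 for Ndufs1, -0.11 for Ndufs3, 0.14 for Ndufs7, 0.09 for Ndufv1 and 0.03 for Ndufv2, none of which passed.

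Among the accessory subunits, which surround the core and stabilise it, 3 rose and 2 fell in young kidneys and 1 fell in aged kidneys. Ndufb3, a small membrane arm subunit, was at 10.97 to 11.14 in young fed mice and at 11.20 to 11.42 in fasted mice, and rose by 0.25 (SE 0.07, adjusted p = 0.0173). Ndufa7 rose by 0.23 (SE 0.05, adjusted p = 0.0097), with young fed mice at 11.01 to 11.11 and fasted mice at 11.25 to 11.32. Ndufa6 rose by 0.20 (SE 0.06, adjusted p = 0.0274), from 11.26 to 11.41 in fed to 11.49 to 11.60 in fasted young mice. In none of these 3 genes did the young groups overlap. Ndufa6 missed the threshold without any 1 of 6 of the 9 young arrays (adjusted p up to 0.0755) and Ndufb3 without fasted mouse 339 or 343 (up to 0.0506), while Ndufa7 passed without any 1 array. Their aged log2 fold changes were 0.16, 0.22 and 0.18, with adjusted p of 0.219, 0.188 and 0.143.

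Ndufc1 fell by 0.22 (SE 0.06, adjusted p = 0.0206) and Ndufa1, which is needed for assembly of the membrane arm, by 0.17 (SE 0.05, adjusted p = 0.0469) in young kidneys, without overlap between the diets. Ndufa1 missed the threshold whichever of the 9 young arrays was left out (adjusted p up to 0.117), and Ndufc1 without fasted mouse 343 or 344 (up to 0.0599). In aged kidneys the log2 fold changes of Ndufc1 and Ndufa1 were -0.07 and -0.14 and did not pass. Ndufv3, a subunit beside the NADH-binding site, fell in aged kidneys, from 11.85, 11.89, 11.89, 11.95 and 12.04 in fed mice to 11.50, 11.60, 11.62, 11.64 and 11.72 in fasted mice. The groups did not overlap, and the log2 fold change was -0.31 (SE 0.07, adjusted p = 0.0145). In young kidneys it was -0.18 (adjusted p = 0.129), and the difference between the ages, -0.12 with a 95% interval of -0.33 to 0.08, did not pass (adjusted p = 0.66). The remaining accessory subunits, 21 in young and 25 in aged kidneys, did not pass, and over all 32 subunits of complex I the farthest bounds of the 95% intervals were a 1.37-fold decrease and a 1.32-fold increase in young and a 1.36-fold decrease and a 1.34-fold increase in aged kidneys.

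Of the assembly factors, which help to build complex I without staying in it, Ndufaf4 fell in both ages and Ndufaf5 in the young. All 7 had a log2 fold change below 0 in young kidneys and 6 of 7 in aged kidneys. This held for 71.9% and 76.4% of all members and for 52.1% and 51.7% of all genes. Ndufaf4, an early assembly factor, was at 9.51, 9.51, 9.51, 9.56 and 9.67 in young fed mice and at 8.97, 8.98, 8.99 and 9.24 in fasted mice. In aged fed mice it was at 9.05, 9.06, 9.14, 9.38 and 9.39, and in aged fasted mice at 8.62, 8.67, 8.71, 8.74 and 8.91. Every fasted mouse lay below every fed mouse of its age. Ndufaf4 fell by 0.51 in young (SE 0.07, adjusted p = 0.000489) and by 0.48 in aged kidneys (SE 0.09, adjusted p = 0.00707), and its second probe set fell by 0.71 and 0.50.

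Ndufaf5, which modifies a core subunit during assembly, fell in young kidneys from 7.40 to 7.74 in fed mice to 6.99 to 7.22 in fasted mice, a log2 fold change of -0.41 (SE 0.08, adjusted p = 0.00365). In aged kidneys it was -0.15 (adjusted p = 0.364), and the difference between the ages was 0.26 with a 95% interval of 0.02 to 0.49 and an adjusted p of 0.306. Ndufaf1 had log2 fold changes of -0.36 (adjusted p = 0.0557) and -0.26 (adjusted p = 0.0957), and those of Ndufaf2, Ndufaf3, Ndufaf6 and Ndufaf8 ranged from -0.13 to 0.04 over both ages.

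Complex II, which takes part in both the tricarboxylic acid cycle and the respiratory chain, showed no change that passed at the brightest probe sets. In limma 0 of its 4 subunits passed in either age, 0 had an unadjusted p under 0.05, and none passed under any alternative setting. Sdha, the flavoprotein, lay at 11.43 to 11.62 in young fed and 11.42 to 11.65 in young fasted mice, and at 11.45 to 11.78 and 11.67 to 11.80 in the aged mice. The groups overlapped in both ages, and the log2 fold changes were 0.01 (95% interval -0.14 to 0.15) and 0.06 (-0.09 to 0.22). For Sdhb, the iron-sulfur subunit, they were -0.00 and -0.05, and for the membrane anchors Sdhc and Sdhd 0.02 and 0.09 in young and -0.03 and -0.08 in aged kidneys. The farthest 95% bounds over the 4 genes were a 1.1-fold decrease and a 1.18-fold increase in young and a 1.21-fold decrease and a 1.16-fold increase in aged kidneys.

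Of the 8 subunits of complex III, Uqcrq, a small subunit near the ubiquinone-binding site, fell in both ages. It was at 11.68, 11.73, 11.74, 11.78 and 11.80 in young fed and at 11.47, 11.54, 11.57 and 11.58 in young fasted mice. In the aged mice it was at 11.24, 11.27, 11.29, 11.29 and 11.44 when fed and at 11.03, 11.05, 11.06, 11.09 and 11.10 when fasted. The diets did not overlap in either age, and the log2 fold changes were -0.21 (SE 0.05, adjusted p = 0.0194) and -0.24 (SE 0.06, adjusted p = 0.0339). The aged change missed the threshold without any 1 of 9 of the 10 aged arrays (adjusted p up to 0.0842), and the young change without fasted mouse 344 (0.0586). Its other 3 probe sets, at mean levels of 3.00 to 3.44, did not pass, and with the mean of all 4 probe sets Uqcrq did not pass in either age. The others did not pass: Cyc1, the cytochrome c1 that donates electrons to cytochrome c, had log2 fold changes of -0.10 and -0.08, the Rieske protein Uqcrfs1 of -0.07 and -0.01, and the core proteins Uqcrc1 and Uqcrc2 of -0.08 and -0.06 in young and -0.20 and -0.01 in aged kidneys.

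Cytochrome c, the mobile carrier between complexes III and IV that also takes part in apoptosis when released from mitochondria, fell in both ages. Cycs was at 11.84, 11.85, 11.91, 11.98 and 12.03 in young fed mice and at 11.36, 11.47, 11.70 and 11.76 in young fasted mice. It was at 11.76, 11.77, 11.84, 11.88 and 11.88 in aged fed mice and at 11.28, 11.41, 11.45, 11.48 and 11.53 in aged fasted mice. The fasted mice were all below the fed mice of their age. Cycs fell by 0.35 (SE 0.09, adjusted p = 0.0148) in young and by 0.40 (SE 0.07, adjusted p = 0.00313) in aged kidneys. It passed without any 1 array in both ages, and in a test without moderation the young change narrowly missed the threshold (adjusted p = 0.051). Both of its other probe sets fell as well, by 0.46 and 0.88 in young and by 0.48 and 0.54 in aged kidneys. Its promoter, shown above, holds the NRF1 core.

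Of the 10 general subunits of complex IV, the oxidase that reduces oxygen, 0 passed in limma in either age, 0 had an unadjusted p under 0.05, and none passed under any alternative setting. The farthest 95% bounds were a 1.18-fold decrease for Cox5a and a 1.12-fold increase for Cox6b1 in young kidneys, and a 1.19-fold decrease for Cox6b1 and a 1.14-fold increase for Cox7c in aged kidneys. Cox4i1, the general form of subunit 4, was at 12.43 to 12.53 in young fed and 12.39 to 12.56 in young fasted mice, with log2 fold changes of -0.01 in young and -0.05 in aged kidneys. Those of Cox6a1 were -0.03 and 0.01, of Cox7a2 -0.03 and -0.05, of Cox8a -0.02 and -0.03, and of Ndufa4, a complex IV subunit named as one of complex I, -0.08 and -0.11.

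The tissue or condition specific forms behaved differently from one another. Cox6b2, known as the testis form of subunit 6b, was at 5.14, 5.14, 5.34, 5.49 and 5.57 in young fed mice and at 6.51, 6.52, 6.56 and 6.91 in young fasted mice. In aged fed mice it was at 4.69, 4.76, 4.89, 5.00 and 5.13, and in aged fasted mice at 6.37, 6.44, 6.58, 6.58 and 6.61. Every fasted mouse was well above every fed mouse of its age. The log2 fold change was 1.29 (SE 0.11, adjusted p = 1.9e-05) in young and 1.62 (SE 0.09, adjusted p = 1.98e-06) in aged kidneys, and it passed under every alternative setting and without any 1 array. The aged effect was larger by 0.34, with a 95% interval of 0.02 to 0.65, which did not pass after adjustment (adjusted p = 0.32).

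The general partner Cox6b1 had log2 fold changes of 0.02 (adjusted p = 0.898) and -0.11 (adjusted p = 0.385). Of the 5 testis germ cell markers 0 passed in limma and 0 had an unadjusted p under 0.05 in either age, and their mean level lay between 3.13 and 3.25 in young fed, 3.13 and 3.16 in young fasted, 2.75 and 2.87 in aged fed and 2.70 and 2.77 in aged fasted mice, below the array medians. Cox6b2 has 1 probe set, so a second reading of the gene was not at hand.

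Cox7a1, the heart and muscle form of subunit 7a that brown fat also uses, went the other way. It was at 7.73, 7.74, 7.77, 7.80 and 7.89 in young fed mice and at 6.78, 6.78, 7.15 and 7.36 in young fasted mice. It was at 7.79, 7.90, 7.95, 8.08 and 8.55 in aged fed mice and at 7.08, 7.08, 7.25, 7.27 and 7.34 in aged fasted mice. Every fasted mouse was below every fed mouse of its age. The log2 fold change was -0.77 (SE 0.11, adjusted p = 0.000665) in young and -0.85 (SE 0.13, adjusted p = 0.00154) in aged kidneys, and it passed under every alternative setting and without any 1 array. The difference between the ages was -0.08 with a 95% interval of -0.45 to 0.30.

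The general partner Cox7a2 did not pass in either age. The mean level of 11 markers of skeletal and heart muscle was near the floor of the arrays in all groups, at 3.15 to 3.30 in young and 2.86 to 2.98 in aged mice. In young kidneys 1 of the 11 rose and 1 fell, and in aged kidneys 0 passed in limma, with 1 at an unadjusted p under 0.05. Mylpf was at 4.31 to 4.67 in young fed and 4.80 to 4.92 in young fasted mice, above the array medians of the young. Among aged mice Cox7a1 was highest in fed mouse 40, which also had the highest Ucp1 level of that age, 7.58, and lowest in fasted mice 38 and 39, which had Ucp1 at 6.36 and 3.53. Among young mice it was lowest in fasted mice 343 and 344, which had Cidea at 6.71 and 3.25.

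**Figure D2:**
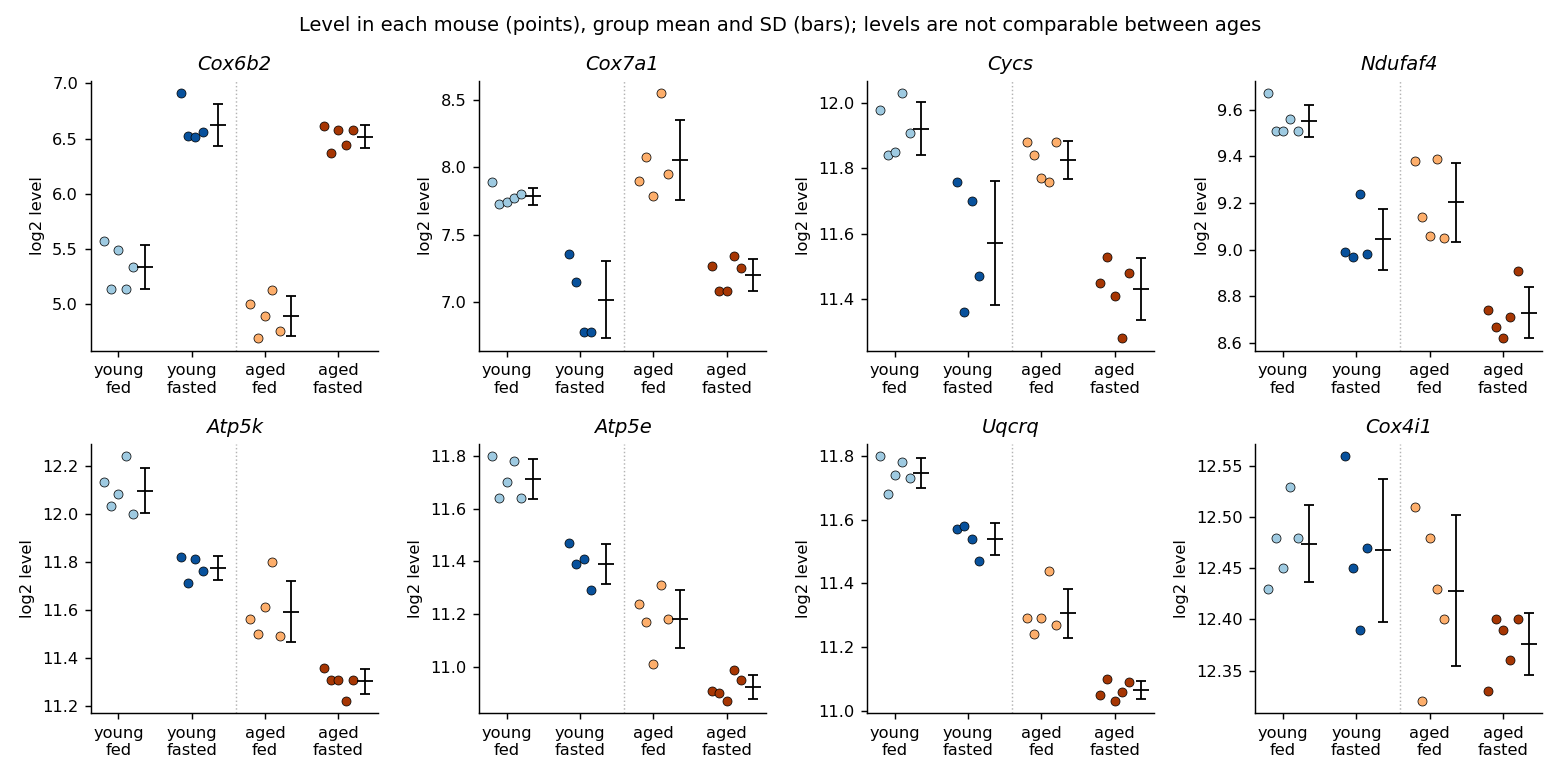
Log2 level (y axis, a range of its own for each gene) of 8 genes in each mouse (points), with the mean and SD of the group (bars), for ad libitum fed and fasted young and aged mice (x axis). The diets do not overlap within an age for Cox6b2, which rose, or for Cox7a1, Cycs, Ndufaf4, Atp5k, Atp5e and Uqcrq, which fell, while they overlap for Cox4i1; levels are not comparable between the ages.

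Cox8b, the muscle and brown fat form of subunit 8, passed in young kidneys but differed widely between mice. It was at 3.61, 3.87, 4.03, 4.55 and 4.64 in young fed mice and at 3.76, 5.93, 6.65 and 7.30 in young fasted mice, so that 3 fasted mice were high and mouse 344 lay among the fed mice. The log2 fold change was 1.77 (SE 0.56, 95% interval 0.54 to 3.00, adjusted p = 0.0464). It missed the threshold without any 1 of 8 of the 9 young arrays, with adjusted p of 0.0611 to 0.127, whereas without fasted mouse 344 it was 2.48 with an adjusted p of 0.0004. With no array left out, Cox8b also missed the threshold in a test without moderation (adjusted p = 0.16) and with trend and robust fitting (0.134). The same held with all 19 arrays in one fit (0.0734). In aged mice it was at 4.37, 5.35, 5.86, 7.02 and 7.54 when fed and at 3.79, 5.99, 6.01, 6.24 and 6.59 when fasted, with full overlap and a log2 fold change of -0.30 (SE 0.61, adjusted p = 0.855). The difference between the ages, -2.07 with a 95% interval of -3.97 to -0.18, did not pass (adjusted p = 0.307).

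The level of Cox8b followed that of some adipocyte genes from mouse to mouse and not that of others. The lipid droplet protein Cidea was at 8.56, 6.51, 6.71 and 3.25 in young fasted mice 339, 340, 343 and 344, in which Cox8b was at 7.30, 5.93, 6.65 and 3.76, and it was at 2.84 to 3.91 in young fed mice. The uncoupling protein Ucp1 was at 4.93, 3.86, 5.65 and 3.82 in the same 4 mice. In the aged mice the highest Cox8b levels, 7.54 and 7.02 in fed mice 40 and 36, went with the highest Ucp1 levels, 7.58 and 7.35, and the lowest, 3.79 in fasted mouse 39, with the lowest, 3.53. Of the 6 brown adipocyte markers, 3 rose in young kidneys (Cidea, Cpt1b and Dio2) while in aged kidneys 0 passed in limma and 1 had an unadjusted p under 0.05. Their mean level was 3.68 to 3.94 in young fed, 3.96 to 5.04 in young fasted, 3.67 to 5.02 in aged fed and 3.67 to 4.89 in aged fasted mice. Cpt1b did not follow Cox8b, being highest among young fasted mice in mouse 344, at 7.51 against 7.03 to 7.17, and Dio2 was at 3.42 in that mouse, above the fed mice at 3.19 to 3.38. Ucp1, Elovl3 and Lhx8 did not pass. The fat cell hormone Adipoq, a marker of white as well as brown adipocytes, was at 9.59, 8.33, 9.24 and 3.99 in young fasted mice 339, 340, 343 and 344, at 5.61 to 6.97 in young fed mice, and at 2.43 in aged fasted mouse 39. Of the 4 white adipocyte markers 0 passed in limma in either age, with 0 in young and 1 in aged kidneys at an unadjusted p under 0.05, and their mean level was 6.12 to 6.75 in young fed, 5.37 to 7.65 in young fasted, 5.11 to 6.30 in aged fed and 4.66 to 6.98 in aged fasted mice. The part of adipocyte RNA in the Cox8b values was not tested.

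**Figure D3:**
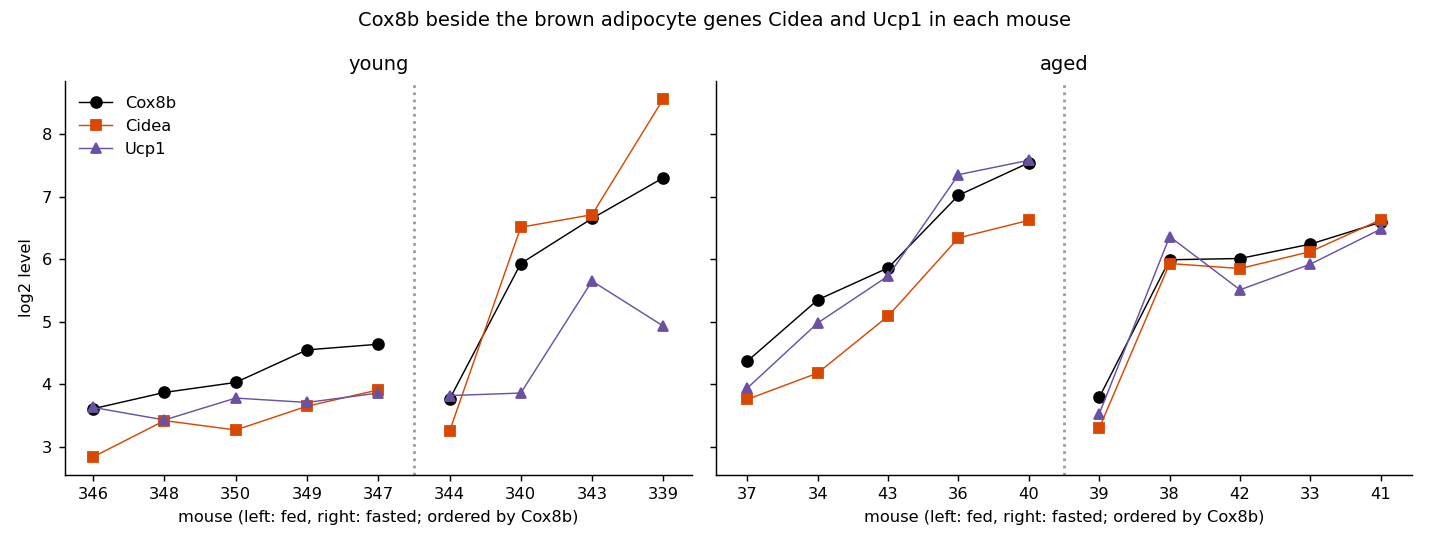
Log2 level (y axis) of Cox8b and of the brown adipocyte genes Cidea and Ucp1 in each mouse (x axis, labelled by mouse number), fed mice left and fasted mice right of the dotted line, in young and aged mice; each line joins the values of 1 gene within a group and carries no order in time. Cox8b and Cidea are both high in young fasted mice 339, 340 and 343 and low in mouse 344 (Cox8b 3.76, Cidea 3.25), while Ucp1 in mouse 340 (3.86) is no higher than in fed mice; levels of different genes are not comparable with each other.

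Ndufa4l2, a hypoxia-inducible relative of Ndufa4, was the only member whose fasting effect differed between the ages, 1 of 89 where 2.44% of all genes did. It was at 3.32, 3.42, 3.49, 3.52 and 3.80 in aged fed mice and at 2.91, 3.11, 3.12, 3.13 and 3.25 in aged fasted mice, and at 3.16 to 3.26 in young fed and 3.22 to 3.42 in young fasted mice. The aged groups did not overlap, and the young groups did. The log2 fold change was -0.41 (SE 0.09, adjusted p = 0.0214) in aged and 0.07 (adjusted p = 0.47) in young kidneys, and the difference was -0.48 (SE 0.11, adjusted p = 0.0328). The aged change missed the threshold without fasted mouse 39 or 41 (adjusted p up to 0.0574) and in a test without moderation (0.0598). All of these levels were close to or below the median of the array, and the difference missed the threshold without any 1 of 10 of the 19 arrays.

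The other isoforms did not pass in either age. Cox4i2, the oxygen-responsive form of subunit 4, had log2 fold changes of 0.06 and 0.09, the muscle form Cox6a2 of -0.11 and -0.04, Cox7b2 of 0.01 and -0.01 and Cox8c of -0.03 and 0.03, at group means of 2.42 to 4.50 and thus close to or below the array medians. Cox7a2l, counted here as related to complex IV, rose in young kidneys, from 10.06 to 10.31 in fed to 10.48 to 10.54 in fasted mice, without overlap. Its log2 fold change was 0.32 (SE 0.06, adjusted p = 0.00322), and its other probe sets rose by 0.27 and 0.37. In aged kidneys it was 0.25 (SE 0.10, adjusted p = 0.185), with overlap between the diets.

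ATP synthase was represented by 17 genes, of which Atp5e and Atp5k fell in both ages. Atp5e, the epsilon subunit of the catalytic F1 part, was at 11.64, 11.64, 11.70, 11.78 and 11.80 in young fed and at 11.29, 11.39, 11.41 and 11.47 in young fasted mice. In the aged mice it was at 11.01, 11.17, 11.18, 11.24 and 11.31 when fed and at 10.87, 10.90, 10.91, 10.95 and 10.99 when fasted. The log2 fold changes were -0.32 (SE 0.06, adjusted p = 0.00345) and -0.26 (SE 0.07, adjusted p = 0.0403), and the aged change missed the threshold without any 1 of 9 of the 10 aged arrays.

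Atp5k, subunit e of the membrane part, which takes part in pairing the enzyme into dimers, fell likewise. It was at 12.00, 12.03, 12.08, 12.13 and 12.24 in young fed and at 11.71, 11.76, 11.81 and 11.82 in young fasted mice, and at 11.49, 11.50, 11.56, 11.61 and 11.80 in aged fed and 11.22, 11.31, 11.31, 11.31 and 11.36 in aged fasted mice. No fasted mouse reached the fed mice of its age in either gene. Atp5k fell by 0.32 (SE 0.06, adjusted p = 0.00413) and by 0.29 (SE 0.07, adjusted p = 0.0315), and its other probe set by 0.33 in young kidneys, with a log2 fold change of -0.24 in aged kidneys (adjusted p = 0.0551). The aged change of Atp5k missed the threshold without any 1 of 6 of the 10 aged arrays (adjusted p up to 0.0878).

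The other 15 genes of ATP synthase did not pass. The catalytic subunits Atp5a1 and Atp5b had log2 fold changes of -0.03 and -0.08 in young and -0.03 and -0.12 in aged kidneys, and the genes of the rotating subunit c, Atp5g1, Atp5g2 and Atp5g3, of -0.12, 0.01 and -0.10 in young and -0.16, -0.05 and -0.03 in aged kidneys. A value below 0 was found for 16 of 17 genes in young and 17 of 17 in aged kidneys, beside 52.1% and 51.7% of all genes. Averaged over the 17 genes, the difference from the mean of the fed mice was -0.029 to 0.033 in young fed and -0.119 to -0.087 in young fasted mice, and -0.045 to 0.065 in aged fed and -0.110 to -0.048 in aged fasted mice. The ranges did not overlap but nearly touched in the aged mice. Over all 72 general subunits with cytochrome c the same average was -0.030 to 0.026 and -0.082 to -0.042 in the young and -0.050 to 0.072 and -0.074 to -0.042 in the aged mice, where the diets overlapped. These averages give a value for each mouse and were not tested, since the members were chosen with earlier results of these data known.

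**Figure D4:**
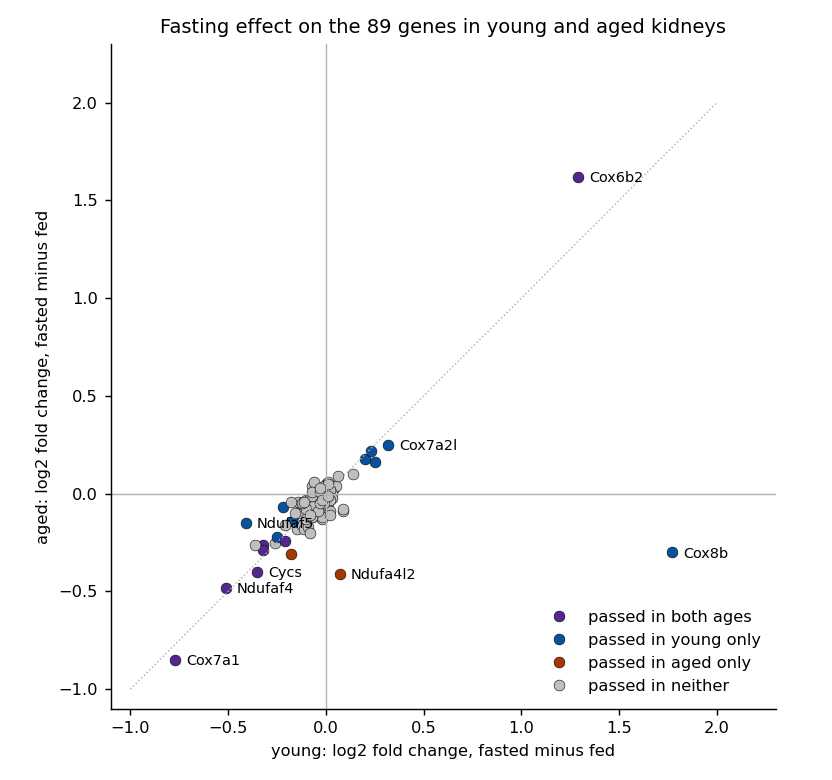
Log2 fold change (fasted minus ad libitum fed) of each of the 89 genes in young (x axis) and aged (y axis) kidneys; colour shows in which age the adjusted p was at most 0.05, and the dotted line marks equal changes. Of the genes, 7 passed in both ages and lie near the dotted line, and Cox8b (1.77 in young, -0.30 in aged) lies farthest from it.

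Most members were read at bright probe sets, 72 of 89 with a mean log2 level over 10 and 79 over 8, beside an array maximum of 13.73. Whether the signal of the brightest probe sets was compressed was not tested. Of the members, 42 had more than 1 probe set of their own and 14 were read at a probe set of a design that can also bind related transcripts. Among these 14 were Atp5e, Atp5k and Uqcrq, which fell in both ages, and Ndufa7, which rose in young kidneys. Like Cox6b2, Atp5e and Cox7a1 had no second probe set of their own. A dimmer probe set passed in an age in which the brightest did not for 8 members, 6 in young and 4 in aged kidneys. For Atp5c1, the gamma subunit of ATP synthase, it rose by 0.79 in young kidneys (adjusted p = 0.00273) at a mean level of 5.89, beside -0.00 at 12.33. For the complex I accessory subunit Ndufs4 it fell by 0.60 in young (adjusted p = 0.000395) and by 0.46 in aged kidneys (adjusted p = 0.00949) at 6.46, beside 0.02 in each age at 10.33. For Uqcr10, a small subunit of complex III, it fell by 0.24 in young (adjusted p = 0.0179) and by 0.55 in aged kidneys (adjusted p = 0.0051) at 9.23, beside 0.02 and -0.09 at 11.69. In young kidneys a dimmer probe set of Ndufa10 fell by 0.62 at a mean level of 4.33, one of Ndufab1 fell by 0.83 at 3.98, and one of Sdha rose by 0.42 at 4.68, beside -0.21, -0.14 and 0.01 at the brightest. In aged kidneys one of Ndufb4 rose by 0.35 at 3.50 and one of Ndufa7 by 0.23 at 10.61, beside 0.04 and 0.22.

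Genes that serve the respiratory chain without being subunits were counted beside the members. Of all genes, 10.7% rose and 12.5% fell in young kidneys and 4.32% rose and 4.84% fell in aged kidneys. Of 34 further assembly factors, 1 rose and 9 fell in young kidneys and 1 rose and 3 fell in aged kidneys. With both directions counted together these shares, 29.4% and 11.8%, were near the 23.2% and 9.16% of all genes that passed. The log2 fold change was below 0 for 79.4% of the 34 in young and 67.6% in aged kidneys, against 52.1% and 51.7% of all genes. The median log2 fold change was -0.11 in each age, beside -0.01 over all genes. Timmdc1 and Ecsit, which act on complex I, fell by 0.42 and 0.54 in young kidneys, Cox15, which makes the heme of complex IV, by 0.69, and the complex III factor Uqcc2 by 0.38. In aged kidneys Ecsit fell by 0.41, and the other 3 did not pass, with log2 fold changes of -0.15, -0.31 and -0.21. Of 10 genes of ubiquinone synthesis, which supplies the carrier between complexes I, II and III, 1 rose and 6 fell in young kidneys, and 1 fell in aged kidneys. The shares that passed were 70% and 10%. Coq4 fell by 0.58, Pdss2 by 0.42 and Coq7 by 0.35, and the kinase-like Coq8a rose by 0.66 in the young mice. In the aged mice Pdss2 fell by 0.48, while the log2 fold changes of Coq4, Coq7 and Coq8a, -0.34, -0.15 and 0.13, did not pass.

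Of 8 other enzymes and carriers that feed electrons to ubiquinone, 2 rose and 1 fell in young kidneys and 3 rose and 1 fell in aged kidneys. These are 37.5% and 50% of a short list, beside 23.2% and 9.16% of all genes. Etfdh, which passes electrons from fatty acid oxidation to ubiquinone, rose by 0.24 (adjusted p = 0.0245) and 0.38 (adjusted p = 0.00242). The glycerol phosphate dehydrogenase Gpd2 fell by 0.74 (adjusted p = 4e-05) and 0.47 (adjusted p = 0.0489). Etfa, a partner of Etfdh, and the hydroxyproline dehydrogenase Prodh2 rose by 0.29 and 0.43 in aged kidneys. Of 12 genes of the tricarboxylic acid cycle, 1 rose and 3 fell in young (33.3%) and 1 rose and 1 fell in aged kidneys (16.7%). Idh3a fell by 0.41 and 0.29, Suclg1 rose by 0.22 and 0.25, and Mdh2 and Ogdh fell in young kidneys by 0.20 and 0.24.

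Of 18 regulators of mitochondrial biogenesis, 4 rose and 3 fell in young kidneys, and 2 rose in aged kidneys. The shares that passed were 38.9% and 11.1%, beside 23.2% and 9.16% of all genes. The fatty acid receptor Ppara rose by 1.01 (adjusted p = 1.45e-05) and 0.87 (adjusted p = 0.000152), and the coactivator Ppargc1b by 0.41 (adjusted p = 0.00101) and 0.42 (adjusted p = 0.0052). Polg2, a subunit of the mitochondrial DNA polymerase, rose by 0.63 and Mterf3 fell by 0.24 in young kidneys. Nrf1, which gives the NRF1 core its name, was at 6.03 to 6.43 in young fed and 6.46 to 6.94 in young fasted mice. In aged mice Nrf1 was at 4.84 to 5.22 when fed and 4.39 to 5.29 when fasted, with overlap. A part of Nrf1 in the values of the members was not tested. Ppargc1a was not among the 18 genes. Of 11 genes for adenine nucleotide and phosphate exchange or uncoupling, the exchanger Slc25a5 rose by 0.21 and the mitochondrial creatine kinase Ckmt1 fell by 0.57 in young kidneys. They make 18.2% of this list, beside 23.2% of all genes. In aged kidneys 0 of the 11 passed in limma, with 3 at an unadjusted p under 0.05.

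**Figure D5:**
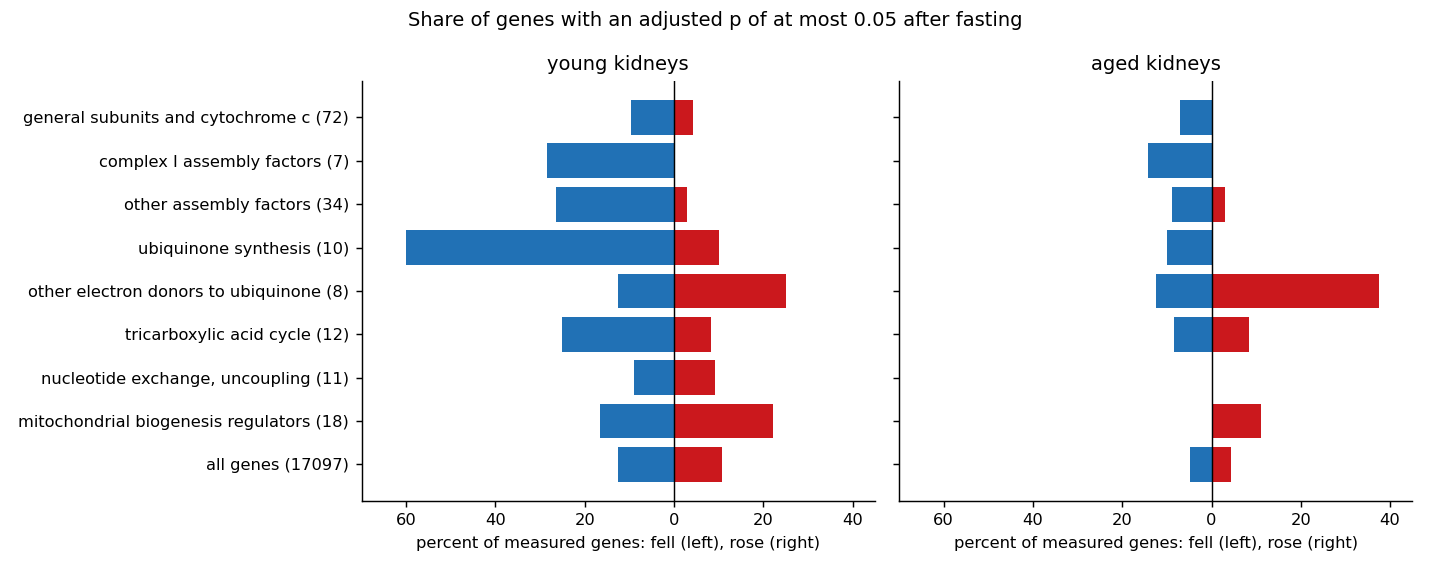
Percent of the measured genes of each list (number in brackets) that fell (left of 0) or rose (right of 0) at an adjusted p of at most 0.05 after fasting, in young and aged kidneys, with all 17097 genes at the bottom. In young kidneys 6 of 10 genes of ubiquinone synthesis and 9 of 34 further assembly factors fell, beside 7 of 72 general subunits with cytochrome c and 12.5% of all genes. Lists of 7 to 18 genes give coarse shares.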

How the data were processed

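Gene expression was measured in kidney RNA of 19 mice with Affymetrix HT MG-430 PM arrays. The authors corrected the background and normalized the arrays by RMA, and deposited log2 values for 45141 probe sets; versions are not given in the sources used here. No level was compared between ages, because the medians of young and aged arrays form separate, narrow ranges. Groups were taken from the labels, and nothing in them pairs the mice or names a batch. Probe sets were named by the annotation supplied with the reference files: 28898 carry 1 symbol, 551 several and 15692 were not listed.

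The log2 values were tested in R 4.3.3 with limma 3.58.1, fasted against ad libitum fed within each age, and the difference of the effects in one fit of the 4 group means over 19 arrays. The Benjamini-Hochberg adjustment ran over the whole table of probe sets. A gene passed with an adjusted p of 0.05 or less, and a fold change of 1.5 or more made it a call. Each array is 1 mouse, and their number limits the precision. The scripts were tested on simulated data.

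The members and the lists were chosen with earlier results of these data known. Genes were named by rule: members called in either age or differing between the ages, the 3 members of each class with the smallest adjusted p in each age, the isoforms and their partners, and up to 4 genes of every other list. Nrf1 and the genes with discordant dimmer probe sets were named after their values were seen. Alternatives were a test without moderation, trend and robust fitting, array weights, all arrays in one fit, quantile normalization, median centring, removal of the dimmest 40 percent of probe sets, the mean of a gene's probe sets, an adjusted p of at most 0.01 and leaving out each array in turn. Leaving out 3 young fasted arrays was added after seeing the data. Promoters and gene symbols are from RefSeq, GRCm38.p6. Serum, histology and survival data were not analysed here.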

Additional observations from a re-analysis of the deposited data

Results flagged for a closer look

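The fasting effect on Ndufa4l2 differed between the ages in one fit of all arrays, by -0.48 on the log2 scale (aged minus young). This rests on low levels. They were 3.16 to 3.42 in young mice, below the array medians of 4.15 to 4.21. In aged mice they were 2.91 to 3.80, beside medians of 3.44 to 3.49.

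Among 18 members that passed in some comparison, taken in 4 groups each (72 groups), 6 had 1 mouse far from the others of its group, where chance alone would single out about 1 in 20. Young fasted mouse 339 was highest for Cox6b2, at 6.91 with the nearest other mouse at 6.56. Young fasted mouse 343 was highest for Ndufaf4, at 9.24 with the nearest at 8.99, and for Ndufa4l2, at 3.42 with the nearest at 3.25. Young fed mouse 349 was lowest for Ndufs8, at 11.56 with the nearest at 11.81. Aged fed mouse 40 was highest for Uqcrq, at 11.44 with the nearest at 11.29. Aged fasted mouse 39 was lowest for Cox8b, at 3.79 with the nearest at 5.99, and it was also the lowest aged mouse for Ucp1, at 3.53.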

How the results depend on the processing

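In young kidneys 16 members passed, and the count was 14 to 19 under the 8 other fits and normalizations, 11 to 16 with 1 array left out and 8 with the threshold at 0.01. Without the 3 young fasted arrays with the highest Cidea level 6 passed, with fewer arrays in the test; Cox8b then stood at -0.38, which the choice of arrays fixes, since they are also the 3 highest in Cox8b. In aged kidneys 9 passed, and the count was 8 to 10 under the other fits, 5 to 8 with 1 array left out (5 without fasted mouse 39 and 5 without fasted mouse 41) and 4 with the threshold at 0.01. Calls at 1.5-fold numbered 2 to 4 in young kidneys and 2 throughout in aged kidneys. With each array centred on its median, the median log2 fold change of the members in young kidneys was -0.08 rather than -0.06. Between the ages 1 member, Ndufa4l2, differed; the count was 0 without moderation, with the dimmest probe sets left out (Ndufa4l2 is among them), without the 3 arrays and with the threshold at 0.01, and 0 to 1 with 1 array left out. With the mean of a gene's probe sets, Atp5c1 stood at 0.39 and Ndufs4 at -0.20 in young kidneys, opposite in sign to their brightest probe sets and past the threshold, and Ndufa10 (-0.41 in young, -0.28 in aged), Ndufab1 (-0.28 in young) and Uqcr10 (-0.31 in aged kidneys) passed as well; the cause was not tested. Ndufaf1 in young kidneys passed under 7 of the 8 other fits and normalizations, at adjusted p of 0.0244 to 0.0493. No paired analysis was possible because the labels give the groups no shared replicate numbers. The number of arrays, 4 or 5 in a group, limits the precision.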
